A study of Mus musculus with 28 samples.

Results

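RNA sequencing libraries of untreated CTLL2 cells taken 4 h after a change to fresh medium were compared with those taken at 2 h, 3 libraries per time, out of 28 libraries in the series. CTLL2 is a mouse cytotoxic T cell line, labelled C57BL/6, that needs interleukin-2 (IL-2) to grow. All cells of the series had first been kept in complete medium for 24 h and received fresh complete medium at 0 h. The 6 libraries compared here are those with titles naming untreated cells at 4 h or at 2 h, and no measured value was used to choose them. Libraries not in this comparison are untreated cells at 0, 0.5 and 8 h and cells given exosomes of B16F0 melanoma cells, resuspended in PBS, at a final 0.2 mg/ml in the fresh medium, at 0.5, 2, 4 and 8 h. The exosome-treated cells at 2 h and 4 h, 3 libraries each, share no library with the untreated ones. The series design calls the replicates biological but does not say whether they came from separate cultures, so the p-values measure the spread between libraries. The main fit estimated that spread over all 28 libraries of the series, not from the 6 alone. The labels put 9 libraries in batch 1 and 19 in batch 2, without saying what a batch is. At 2 h, replicate 1 was in batch 1, and at 4 h it was replicate 2, so that each time had 1 library in batch 1 and 2 in batch 2. CTLL2 is 1 cell line grown in culture, and the labels do not give the contents of the medium.

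T cells that need IL-2 receive its signal through the IL-2 receptor, which activates the kinases JAK1 and JAK3 and the transcription factor STAT5. STAT5 in turn drives genes of survival (Bcl2, Bcl2l1), of the PIM kinases and of the SOCS proteins that damp the signal. The same receptor activates the ERK and PI3K-AKT pathways, and AKT keeps the FOXO transcription factors, which drive genes of quiescence and cell death, out of the nucleus. Growing cells also make cholesterol, under control of SREBP2, which is activated when sterols are scarce. Hypoxia-inducible factor (HIF) drives glycolytic enzymes and regulators of mitochondria when oxygen is low, as it can be in a dense culture. Fresh medium can change the supply of growth factors, nutrients and sterols, and the time course follows the cells after that change.

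Values are normalized counts, that is, reads divided by 1 size factor per library, which do not correct for gene length. Log2 fold changes are on the scale of log2(normalized count + 1), with limma's standard error (SE), and a gene was called when its Benjamini-Hochberg adjusted p in limma was below 0.05 over the 14828 genes tested. Library values are given in the order of replicates 1, 2 and 3.

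The 6 libraries held between 11680081 and 21120943 reads, and 3 reads amount to 2.10 to 3.98 normalized counts. T cell genes were present in all 6, with Thy1 at 21436, 20846 and 20735 at 2 h and 21711, 21065 and 21606 at 4 h. Thy1 is on the fibroblast list as well. Cd3e and Gzmb were also present throughout. Cd2, at 130 to 323 normalized counts, and Cd8a, at 71.2 to 152, were far lower. One library stood apart: untreated 4 h replicate 1 had a value of 0 for only 15.7% of genes, against 31.3% to 35.1% in the other 5, and genes too low to be tested held 0.178% of its signal against at most 0.0959% in the others. Without that library 53 genes were called, 15 higher and 38 lower, of which 48 were among the 74 called with it. Skeletal muscle markers summed to 661 to 1812 normalized counts at 2 h, with the highest sum in replicate 2, without which 44 genes were called, and to 729 to 907 at 4 h. Of the 14 muscle markers tested 13 had a negative log2 fold change, with a median of -1.13, and none was called, nor was any tested member of the melanocyte, macrophage, B cell, fibroblast or erythroid and liver lists. Melanocyte markers summed to 59.6 to 123 at 2 h and 69.6 to 141 at 4 h, where Tyrp1 and Slc45a2 were at 0 in all 6 libraries. Macrophage and dendritic markers, led by Itgax, summed to 6680 to 9980 at 2 h and 8840 to 10200 at 4 h.

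Between 2 h and 4 h, 74 of the 14828 genes tested were called, which is 0.499%. Of these, 20 (0.135%) were higher and 54 (0.364%) were lower at 4 h. Among the lower genes were the ETS factor Etv5, the cytokine gene Lta, the survival genes Bcl2 and Bcl2l1, the kinase gene Pim2, 6 enzymes of cholesterol synthesis and the HIF targets Bnip3, Bnip3l, Pdk1 and Ndrg1. Among the higher ones were the chemokine receptor Cxcr4, the cell cycle inhibitor Cdkn1b, the atypical cyclin Ccng2, the cell death gene Bcl2l11 and the replication licensing gene Cdc6. Changes were small: the absolute log2 fold change of called genes ran from 0.25 to 2.07, with a median of 0.44 for the higher and -0.52 for the lower genes, and 8 genes changed by 1 or more. All 74 had the same direction in batch 1 (1 library against 1) and batch 2 (2 against 2). The genes were called from these same libraries, which favours such agreement, so it is not a separate test. The 3 libraries of each time did not overlap for 12 of the 20 higher and 39 of the 54 lower genes, while over all tested genes 3.62% were non-overlapping and higher and 3.64% non-overlapping and lower. At an unadjusted p below 0.05 there were 1238 genes, 615 higher and 623 lower.

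The count of calls depended on single libraries. It was 20 (1 higher and 19 lower) without untreated 4 h replicate 2, 32 without untreated 2 h replicate 3, 42 without untreated 4 h replicate 3 and 44 without untreated 2 h replicate 2. Of the 74 genes, 17 were called whichever of the 6 libraries was left out: Adamts6, Bcl2, Bcl2l1, Bnip3, Cyp51, Gbe1, Hbegf, Hsd17b7, Igtp, Msmo1, Narf, Pim2, Ptpn9, Sqle, Wnt7b, Abhd17c and the predicted gene Gm16439. A fit on the 6 libraries alone called 7 genes, whereas edgeR on the reads behind the values called 98, with 73 of the 74 among them, and DESeq2 called 186, also with 73 (it gave no adjusted p for Clca4a).

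**Figure D1:**
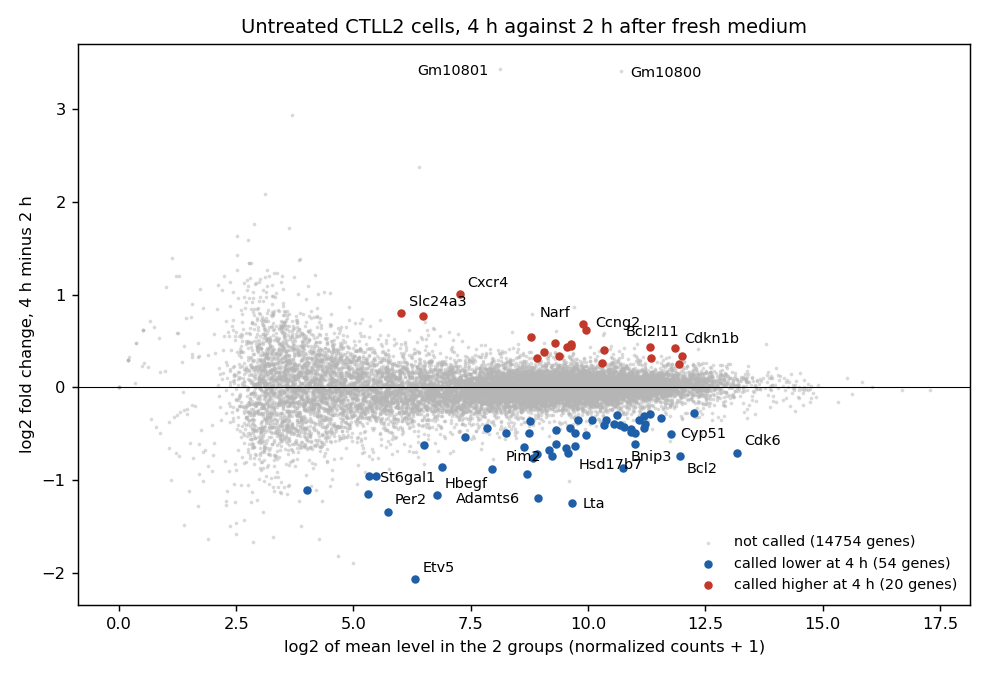
Log2 fold change from 2 h to 4 h in untreated cells (vertical axis) against the log2 mean level of the 6 libraries in normalized counts (horizontal axis), 1 point per gene tested. The 54 genes called lower (blue) and the 20 called higher (red) lie mostly within 1 log2 unit of 0, Etv5 is the lowest of them at -2.07, and the largest differences of all, Gm10800 and Gm10801, were not called.

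Targets of IL-2 and STAT5 were among the genes that fell at 4 h. Of the 17 members tested, 5 were called lower and none higher, against 0.364% and 0.135% of all genes tested. A negative log2 fold change was found for 16, also with TMM scaling, while all genes split into 7349 positive and 7479 negative. The median of the list was -0.22, against -0.00 over all genes. Bcl2, which blocks mitochondrial cell death (ENSMUSG00000057329.7, chr1:106538178-106714274, minus strand of GRCm38), was at 4790.3, 5119 and 4982 at 2 h and 3041, 2789.9 and 3077 at 4 h. All 3 libraries at 4 h lay below all 3 at 2 h, in both batches, with a log2 fold change of -0.74 ± 0.12 (adjusted p = 0.00162). Pim2, a serine/threonine kinase of survival and growth (ENSMUSG00000031155.14, chrX:7878262-7883432, plus strand), went from 728, 811 and 711 to 468, 378 and 514, again without overlap (log2 fold change -0.73 ± 0.09, adjusted p = 4.19e-05). Bcl2l1, the gene of BCL-XL, a relative of BCL-2 with the same role, stood at 1164, 1009 and 914 at 2 h and at 649, 651 and 681 at 4 h (log2 fold change -0.63 ± 0.09, adjusted p = 0.000786). These 3 calls held whichever of the 6 libraries was left out.

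Lta, which encodes the cytokine lymphotoxin alpha (ENSMUSG00000024402.5, chr17:35203165-35205351, minus strand), changed most on the list, from 832, 1403 and 1160.0 at 2 h to 440.1, 415 and 559 at 4 h. The times did not overlap, the 2 h libraries varied by more than the 4 h ones, and the mean at 4 h was 0.417 of that at 2 h (log2 fold change -1.24 ± 0.22, adjusted p = 0.00474, 0.0592 without untreated 4 h replicate 2). Socs2, a feedback inhibitor of cytokine receptors, fell least, from 2700.0, 2927 and 2819 to 2411, 2206 and 2323 (log2 fold change -0.28 ± 0.06, adjusted p = 0.017, at most 0.187 with 1 library left out). The other feedback genes were not called: Cish was at 1388, 2452 and 2106 and 1735, 1346 and 1933, which is -0.22 on the log2 scale (adjusted p = 0.638), and Socs1 had -0.25 (adjusted p = 0.537). Pim1, the relative of Pim2, had a log2 fold change of 0.12 (adjusted p = 0.633), the one positive value on the list. The receptor chain Il2ra stood at 16330.0, 20545 and 20211 and 17290.0, 15384 and 19210.0 (log2 fold change -0.14, adjusted p = 0.821) and the cell cycle gene Ccnd2 at 11554, 11592 and 12054 and 10599, 9309.9 and 10998 (-0.19, adjusted p = 0.666). None of the 13 JAK-STAT receptors and kinases tested was called, and the smallest p belonged to Stat6 (0.17) and to Ptpn6, the phosphatase SHP-1 (0.21).

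The BCL-2 family moved in both directions. Of 12 members tested, the survival genes Bcl2 and Bcl2l1 fell and Bcl2l11 rose, while the median of the family was -0.10. Bcl2l11 encodes BIM, which binds and blocks BCL-2 and its relatives (ENSMUSG00000027381.16, chr2:128126038-128162547, plus strand). It stood at 1454, 2608 and 2602 at 2 h and 3183, 2452 and 3137 at 4 h, where the higher values of batch 2 at 2 h overlapped the batch 1 value at 4 h. Within batches the log2 fold change was 0.75 in batch 1 and 0.28 in batch 2, and the fit gave 0.44 ± 0.09 (adjusted p = 0.015). The adjusted p was 0.0866 without untreated 2 h replicate 1 and 0.213 without untreated 4 h replicate 2, the 2 libraries of batch 1.

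Promoters of Lta and Bcl2l11 are shown because these genes moved in opposite directions at the same time and because each has a window that holds a match to a motif read by factors of the pathways above. The windows are the 250 bases before the transcription start, from RefSeq on GRCm38.p6, 5′ to 3′ on the strand of the gene, and the motifs were chosen with the results known. Both strands of 300-base windows, which reach 50 bases past the start, were searched, and 8.3% of 32851 promoters hold TTCNNNGAA, the GAS element of STAT factors, and 3.6% hold GTAAACA, the forkhead motif that FOXO factors read. The window of Lta (chr17:35205352-35205601, minus strand) holds 2 copies of TTCNNNGAA, in capitals, beginning 152 and 16 bases before the start:

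Lta: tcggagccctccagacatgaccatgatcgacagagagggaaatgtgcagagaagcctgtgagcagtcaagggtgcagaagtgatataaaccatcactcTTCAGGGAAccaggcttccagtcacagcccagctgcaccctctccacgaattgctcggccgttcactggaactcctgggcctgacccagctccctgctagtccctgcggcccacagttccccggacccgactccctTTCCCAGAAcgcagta

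Of the 2 windows of Bcl2l11 in the table, the second has no GTAAACA. The first (chr2:128125788-128126037, plus strand) holds GTAAACA, in capitals, once, beginning 227 bases before the start:

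Bcl2l11: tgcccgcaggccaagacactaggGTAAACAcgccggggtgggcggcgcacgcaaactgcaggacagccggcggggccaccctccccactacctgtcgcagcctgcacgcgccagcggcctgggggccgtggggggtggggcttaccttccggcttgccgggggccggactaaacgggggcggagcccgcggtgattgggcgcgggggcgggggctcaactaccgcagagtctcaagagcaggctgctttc

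Of the 14 genes of the IL-2 and STAT5 list with a promoter in the table, 4 held TTCNNNGAA in at least 1 window (Cish, Lta, Socs3 and Tnfrsf9), and the windows of Bcl2, Bcl2l1 and Pim2 had no match. Of 13 genes of the FOXO1 list, 2 held GTAAACA (Btg1 and Sesn1). A match describes the letters only.

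A target of ERK had the largest fall of the called genes. Etv5, an ETS transcription factor that ERK signalling induces (ENSMUSG00000013089.15, chr16:22381309-22439719, minus strand), was at 114, 116 and 150.2 at 2 h and at 25.0, 21.2 and 46.8 at 4 h. Every 4 h library was below every 2 h library, and the mean at 4 h was 0.245 of that at 2 h. The log2 fold change was -2.07 ± 0.35 (adjusted p = 0.00325, 0.0592 without untreated 4 h replicate 2). Spred1, which restrains the activation of ERK by RAS, fell from 619, 868 and 812 to 541, 352 and 641, with an overlap between untreated 2 h replicate 1 and 4 h replicate 3 (log2 fold change -0.61 ± 0.12, adjusted p = 0.0113, 0.117 without untreated 4 h replicate 2). These were the 2 called of 13 feedback genes tested, against 0.364% of all genes called lower. The median of the 13 was -0.27, with 8 negative and 5 positive values. Outside the list, Hbegf, a growth factor of the EGF family that ERK-activating signals induce, went from 125, 163 and 160.4 to 73.2, 45.0 and 86.7 (log2 fold change -1.16 ± 0.16, adjusted p = 0.000528), without overlap and whichever library was left out. The phosphatase gene Dusp7, also outside the list, fell as well (log2 fold change -0.53, adjusted p = 0.0151, 0.174 without untreated 4 h replicate 2). Hbegf and Dusp7 are named because they were called, so they add nothing to the count of the list.

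Immediate early genes, which growth factor signals induce within minutes, showed no call among 21 tested, with a median of 0.00. Egr1 was at 66.3, 49.8 and 54.9 at 2 h and 40.5, 49.3 and 43.8 at 4 h (log2 fold change -0.34, adjusted p = 0.785). Junb was at 4370.1, 3026 and 2815 and 3007, 4551 and 2801, where the 2 batch 1 libraries were the highest of each time (0.01, adjusted p = 0.992). Fos, at 0, 1.40 and 3.43 and 0, 0.849 and 1.95, lay near or under the level of 3 reads. The smallest p on the list belonged to Jun (0.38, adjusted p = 0.061) and Srf (-0.29, adjusted p = 0.253).

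Enzymes of cholesterol synthesis gave more calls by count than any other list. The share of tested members called was 28.6%, below the 29.4% of the IL-2 and STAT5 targets. Of 21 SREBP2 targets and enzymes of the pathway tested, 6 were called lower and none higher, against 0.364% and 0.135% of all genes. All 21 had a negative log2 fold change, also with TMM scaling, with a median of -0.24. Hsd17b7, a reductase of the late pathway (ENSMUSG00000026675.12, chr1:169949535-169969241, minus strand), was at 897, 941 and 982 at 2 h and 579, 563 and 583 at 4 h. All 3 libraries at 4 h lay below all 3 at 2 h with little spread within either time, and the log2 fold change was -0.71 ± 0.07 (adjusted p = 1.46e-05). Cyp51, the lanosterol demethylase, went from 3714, 4095 and 4528 to 3153, 2424 and 3140.1 (log2 fold change -0.51 ± 0.07, adjusted p = 0.000313). For Msmo1, a methylsterol oxidase of the same pathway, the values were 3165, 2040.3 and 2239 and 1616, 1637 and 1531. The step was larger in batch 1 (-0.95 against -0.44 in batch 2, fit -0.61 ± 0.10, adjusted p = 0.0018). Sqle, the squalene epoxidase, fell from 2809, 2579.6 and 2734 to 1949.7, 2202 and 2041 (log2 fold change -0.39 ± 0.06, adjusted p = 0.00243). The calls of these 4 genes held whichever library was left out.

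Sc5d, a desaturase of the last steps, fell (log2 fold change -0.30, adjusted p = 0.0338, up to 0.229 without untreated 2 h replicate 1). Aacs, which feeds ketone bodies into sterol and fatty acid synthesis, and Rdh11, a retinol dehydrogenase, fell as well, with -0.35 and -0.46 (adjusted p = 0.0163 and 0.0127). The adjusted p of Aacs was up to 0.12, without untreated 4 h replicate 1, and that of Rdh11 up to 0.0935, without untreated 2 h replicate 1. Fatty acid synthesis, driven by SREBP1, had no call among 9 genes: the log2 fold change was -0.27 for Fasn (adjusted p = 0.62) and -0.23 for Elovl6 (adjusted p = 0.677). Genes of sterol export and LXR had no call among 6, with Srebf1 at -0.13 and Lpcat3 at -0.08.

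Promoters of the 3 sterol genes with the largest change are shown for the CCAAT box, which the factor NF-Y reads and which often lies beside sterol response elements. CCAAT or its complement is in 37.4% of the 32851 promoters. All 14 genes of the list with a promoter in the table held it in at least 1 window, in 14 of their 17 windows. The windows are again the 250 bases before the start, with each CCAAT, or ATTGG where it lies on the other strand, in capitals. They are those of Hsd17b7 (chr1:169969206-169969455, minus strand), with matches beginning 165, 73 and 12 bases before the start, of Msmo1 (chr8:64733579-64733828, minus strand), with matches at 160, 96 and 55 bases, and of Cyp51 (chr5:4104698-4104947, minus strand), with 1 match at 29 bases:

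Hsd17b7: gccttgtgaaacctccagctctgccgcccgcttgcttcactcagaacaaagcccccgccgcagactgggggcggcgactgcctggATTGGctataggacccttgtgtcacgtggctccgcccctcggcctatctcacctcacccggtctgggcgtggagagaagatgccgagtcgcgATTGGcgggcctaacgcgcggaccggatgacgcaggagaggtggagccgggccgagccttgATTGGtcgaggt

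Msmo1: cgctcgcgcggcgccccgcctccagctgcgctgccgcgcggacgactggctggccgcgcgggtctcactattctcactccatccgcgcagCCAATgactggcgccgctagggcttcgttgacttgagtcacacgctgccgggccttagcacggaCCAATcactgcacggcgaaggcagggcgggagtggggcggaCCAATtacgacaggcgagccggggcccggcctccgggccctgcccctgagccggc

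Cyp51: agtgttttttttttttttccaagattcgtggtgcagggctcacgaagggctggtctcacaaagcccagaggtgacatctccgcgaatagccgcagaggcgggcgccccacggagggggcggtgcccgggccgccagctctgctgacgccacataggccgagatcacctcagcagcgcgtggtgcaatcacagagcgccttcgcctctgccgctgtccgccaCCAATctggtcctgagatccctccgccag

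Some targets of HIF fell as well. Of 20 tested, 4 were called lower and none higher, against 0.364% and 0.135% of all genes. There were 12 negative and 8 positive values (13 and 7 with TMM scaling), with a median of -0.08. Bnip3, a mitochondrial protein that promotes the removal of mitochondria (ENSMUSG00000078566.8, chr7:138890836-138909519, minus strand), was at 3857, 1328 and 1585 at 2 h and 868, 1828 and 832 at 4 h. The batch 1 library was far above the others at each time, so that its 4 h value lay within the range of the 2 h values, and the step was -1.08 in batch 1 and -0.77 in batch 2 (fit -0.87 ± 0.14, adjusted p = 0.0018). Its relative Bnip3l fell too (log2 fold change -0.40, adjusted p = 0.0335, up to 0.228 without untreated 2 h replicate 1). Pdk1, the kinase that shuts pyruvate out of mitochondria, went from 3308, 1605 and 1827 to 1378, 2135 and 1294, with the batch 1 library again highest at each time (log2 fold change -0.45 ± 0.09, adjusted p = 0.0127, up to 0.0942 without untreated 2 h replicate 1). Ndrg1, a stress-response gene, fell (log2 fold change -0.41, adjusted p = 0.0138, 0.187 without untreated 4 h replicate 2).

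Slc2a1, the glucose transporter GLUT1, was at 1406, 995 and 843 at 2 h and 824, 1827 and 797 at 4 h (log2 fold change 0.01, -0.000352 with TMM scaling, adjusted p = 0.996). Of 16 glycolysis genes, only Pfkl, a phosphofructokinase, was called. It fell from 2488, 2084 and 2162 to 1566, 1924 and 1385 without overlap (log2 fold change -0.48 ± 0.09, adjusted p = 0.0151, up to 0.116 without untreated 4 h replicate 3), and the list's median was -0.14. Gbe1, the glycogen branching enzyme, fell from 1385, 613 and 738 to 462, 818 and 425, with the batch 1 library highest at both times (-0.76 in batch 1, -0.60 in batch 2, fit -0.65 ± 0.11, adjusted p = 0.00243). The predicted gene Gm16439 (chromosome 14) had the same pattern, 924, 309 and 419.6 against 218, 414 and 189 (log2 fold change -0.93, adjusted p = 0.00357). Txnip, the glucose-sensing inhibitor of glucose uptake, had -0.10 (adjusted p = 0.8), and neither it nor the other 3 MondoA genes tested were called, with Mlx at -0.13. Ddit4, a stress-induced inhibitor of mTOR complex 1, had 0.34 (adjusted p = 0.339).

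Among the higher genes were targets of FOXO and an inhibitor of the cell cycle. All 11 genes of the FOXO1 and quiescence list that were tested had a positive log2 fold change, also with TMM scaling. Their median was 0.27, and 2 were called higher, against 0.135% of all genes. Ccng2, an atypical cyclin that FOXO factors induce in resting cells (ENSMUSG00000029385.14, chr5:93267257-93276231, plus strand), was at 1063, 569 and 697 at 2 h and 1014, 1715 and 873 at 4 h. Values of the batches overlapped between the times, but within each batch every 4 h value was above every 2 h value (0.69 in batch 1, 0.58 in batch 2, fit 0.62 ± 0.12, adjusted p = 0.0142). Its adjusted p was 0.19 without untreated 4 h replicate 2 and 0.0978 without untreated 2 h replicate 2. Cdkn1b, the gene of the CDK inhibitor p27 (ENSMUSG00000003031.14, chr6:134920401-134925513, plus strand), went from 3475, 2851 and 3082 to 4027, 5179 and 3524 without overlap (log2 fold change 0.42 ± 0.08, adjusted p = 0.0151, up to 0.18 without untreated 4 h replicate 2).

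Cdk6, a kinase of the G1 phase (ENSMUSG00000040274.11, chr5:3341485-3531008, plus strand), fell, from 7786, 13817 and 12829 to 7748, 4782 and 8642. The batch 1 library was the lowest at each time, and the step was -0.70 in both batches (fit -0.70 ± 0.13, adjusted p = 0.0113, 0.0982 without untreated 4 h replicate 2). Cdkn1a, the gene of the inhibitor p21, missed the threshold at 0.42 ± 0.10 on the log2 scale (adjusted p = 0.0516), whereas edgeR and DESeq2 called it higher. Cdk6 and Cdkn1b were the 2 called of 13 cyclin D, CDK and inhibitor genes. Cdc6, which loads the replicative helicase onto origins, rose from 366, 608 and 607 to 822, 521 and 862 (log2 fold change 0.48 ± 0.10, adjusted p = 0.017, at most 0.105 with 1 library left out). It was the only call among 30 genes of G1/S and DNA replication, 27 of which had a positive value, also with TMM scaling, with a median of 0.14. No gene of G2/M and mitosis was called among 25 (Ttk 0.27 and Aurkb 0.20 had the smallest p), and no histone gene among 18 (Hist1h1d -0.63 and Hist1h2bb -0.82). Myc was at 1249, 2262 and 2544 and 2461, 1400.5 and 2725 (log2 fold change 0.13, adjusted p = 0.658), and of 29 genes of MYC and ribosome biogenesis none was called, with Gnl3 at -0.34 and Ppan at -0.33.

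**Figure D2:**
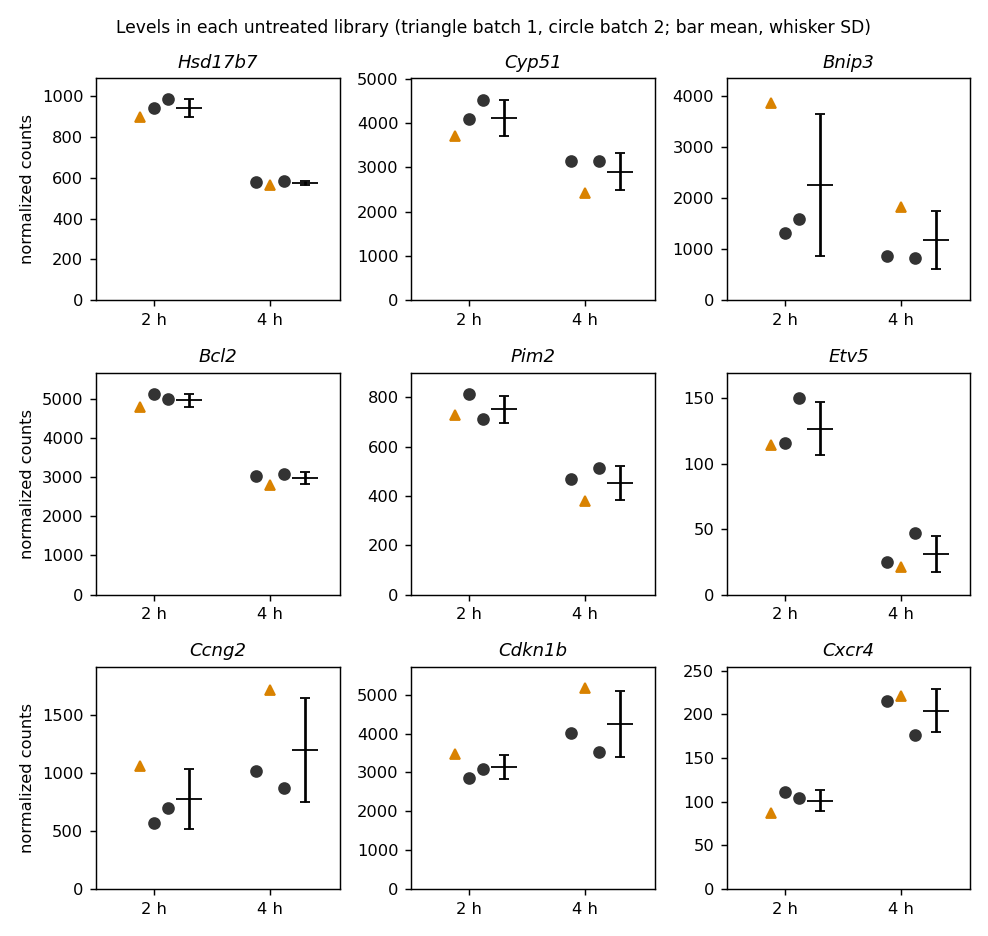
Normalized counts (vertical axes, from 0) of 9 called genes in each untreated library at 2 h and 4 h, with triangles for batch 1, circles for batch 2, and a bar and whisker for the mean and SD of the 3 libraries. Hsd17b7, Bcl2 and Etv5 separate the times in every library, whereas Bnip3 and Ccng2 separate them within each batch only.

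The other large falls were in genes of varied roles. Adamts6, a secreted metalloprotease (ENSMUSG00000046169.9, chr13:104287835-104496695, plus strand), went from 622, 742 and 679.5 to 343, 235 and 325, with every 4 h library below every 2 h library (log2 fold change -1.19 ± 0.13, adjusted p = 2.16e-05). Per2, a repressor of the circadian clock (ENSMUSG00000055866.9, chr1:91415982-91459324, minus strand), fell from 46.4, 91.9 and 85.8 to 36.2, 16.1 and 36.0 (log2 fold change -1.34 ± 0.30, adjusted p = 0.0338, 0.343 without untreated 4 h replicate 2), and was the only call among 12 clock genes, whose median was 0.02. Igtp, an interferon-induced GTPase, fell from 488, 654 and 554 to 375, 245 and 395 (log2 fold change -0.76 ± 0.11, adjusted p = 0.000585), while none of 13 interferon-stimulated genes on the list was called. St6gal1, a sialyltransferase, went from 79.5, 36.5 and 42.0 to 23.3, 36.5 and 18.5, with the batch 1 library highest at each time (log2 fold change -0.96 ± 0.20, adjusted p = 0.017, 0.227 without untreated 4 h replicate 2). Myo16, an unconventional myosin, fell from 289, 353 and 320.0 to 183, 158 and 180.2 (log2 fold change -0.88 ± 0.17, adjusted p = 0.0138, 0.162 without the same library).

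Genes at low levels gave further calls that rest on few reads. Ism1, a secreted protein, was at 61.0, 53.3 and 44.6 and 32.7, 17.0 and 22.4 (log2 fold change -1.14, adjusted p = 0.017, 0.229 without untreated 4 h replicate 2). Tnni3, cardiac troponin I, was at 62.3, 58.9 and 49.8 and 28.4, 39.1 and 21.4 (-0.95, adjusted p = 0.0163, 0.119 without that library). Clca4a was at 18.6, 18.2 and 26.6 and 6.89, 9.34 and 11.7 (-1.11, adjusted p = 0.0434, 0.241 without untreated 2 h replicate 3). These and St6gal1 are the 4 called genes with a mean under 50 normalized counts. Tlr5, the receptor for bacterial flagellin, was at 74.2, 195 and 177 and 99.0, 34.8 and 123 (-0.85, adjusted p = 0.0463), with the batch 1 library the lowest at both times, and its call was lost whichever of the 6 libraries was left out.

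The remaining calls lower at 4 h had smaller changes. Wnt7b, a Wnt ligand, fell from 1398, 1052 and 1066 to 713, 994 and 763 (log2 fold change -0.51 ± 0.07, adjusted p = 0.000556), and the phosphatase gene Ptpn9 from 2447, 2453 and 2286 to 1589, 1782 and 1756 (-0.49 ± 0.08, adjusted p = 0.0022). Genes of membrane transport and channels were Kcnq5, a potassium channel (-0.65), Slc30a1, the zinc exporter (-0.44), Slc37a3 (-0.36) and Abcb9, a lysosomal peptide transporter (-0.31). Signalling genes were Lrp8, a lipoprotein and reelin receptor (-0.68), Styk1 (-0.62), the G protein subunit Gnaq (-0.35), the ubiquitin ligases Smurf1 (-0.42), Rnf128 (-0.35) and Znrf2 (-0.28), and the depalmitoylase Abhd17c (-0.39). In the nucleus were Jarid2, a cofactor of Polycomb repressive complex 2 (-0.44), Polr3d, a subunit of RNA polymerase III (-0.49), and Mdfic (-0.35). The rest were Dmwd (-0.72), the O-glycan enzyme Gcnt1 (-0.44), the collagen Col27a1 (-0.49) and Prelid2 (-0.49). Wnt7b, Ptpn9 and Abhd17c were called whichever library was left out, Dmwd lost its call only without untreated 4 h replicate 2 (adjusted p = 0.0714), and Slc30a1 lost it whichever of the 6 was left out.

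Cxcr4, the receptor of the chemokine CXCL12 (ENSMUSG00000045382.6, chr1:128588199-128592293, minus strand), had the largest rise of the called genes. It was at 87.5, 112 and 105 at 2 h and 215, 221 and 176 at 4 h, without overlap (log2 fold change 1.01 ± 0.22, adjusted p = 0.0336). Its adjusted p was up to 0.332, without untreated 4 h replicate 2, and the call was kept only without untreated 4 h replicate 3. Narf, a nuclear protein that binds prelamin A (ENSMUSG00000000056.7, chr11:121237253-121255856, plus strand), rose from 904, 612 and 649 to 952, 1674 and 924 (log2 fold change 0.68 ± 0.10, adjusted p = 0.000528) and was the only higher gene called whichever library was left out. Slc24a3, a sodium, calcium and potassium exchanger, went from 35.8, 54.0 and 50.6 to 76.6, 84.9 and 81.8 (0.80 ± 0.17, adjusted p = 0.0194, 0.215 without untreated 4 h replicate 2). Slc37a2, a sugar phosphate transporter, was at 86.2, 56.1 and 50.6 and 78.4, 154 and 103 (0.77 ± 0.17, adjusted p = 0.0305, 0.239 without that library).

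The other higher genes changed by less than 0.6. Samd3 rose from 313, 379 and 391 to 515, 508 and 549.5 and Parp8, of the PARP family, from 583, 694 and 748 to 912, 824 and 1008, both without overlap (log2 fold change 0.54 and 0.44). Pnrc1, a coactivator of nuclear receptors, rose by 0.46, N4bp2l1 by 0.43, Kctd12, an auxiliary subunit of the GABA-B receptor, by 0.41, and Ccdc117 by 0.38. Syt11, a synaptotagmin, rose by 0.34, Pde3b, which breaks down cyclic nucleotides, by 0.33, Taf8, a subunit of TFIID, by 0.32, Gucy2e, a guanylate cyclase, by 0.32 and Amigo1 by 0.26. Ptpn22, a phosphatase that restrains T cell receptor signalling, had the smallest change of all called genes, from 3823, 3333 and 3484 to 3791, 4971 and 4003 (log2 fold change 0.25 ± 0.06, adjusted p = 0.0352). Each of these calls was lost without untreated 4 h replicate 2, where the adjusted p lay between 0.108 and 0.448.

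The effector and identity genes of the T cell showed few calls. Gzmb, the protease that kills target cells, was at 54827, 39923 and 35480.0 at 2 h and 38063, 39728 and 36781 at 4 h, where the high value at 2 h is the batch 1 library (log2 fold change -0.16, adjusted p = 0.714). The pore-forming Prf1 had -0.19 (adjusted p = 0.549), and none of 15 granzyme and perforin genes was called. Ifng, the gene of interferon gamma, was at 75.6, 82.8 and 62.6 and 49.1, 60.3 and 75.0 (-0.27, adjusted p = 0.814), and Lta was the only call among 9 effector cytokines and chemokines. None was called of 18 T cell identity and receptor genes (Lck 0.11), of 7 inhibitory receptors (Klrg1 0.77, Ctla4 0.26), or of 17 T cell transcription factors (Lef1 0.48, adjusted p = 0.061). Prdm1, the gene of Blimp-1, a factor of effector T cells, was on that last list, at 695, 475 and 515 and 804, 1736 and 733. Its log2 fold change was 0.86 ± 0.22 (adjusted p = 0.0785), and DESeq2 called it, as it did Cdkn1a, Fkbp5, Irf1, Jun, Lef1, Neil2, Ppan, Ripk3, Sesn2 and Ttk, none of them called by limma. The NF-kB targets had no call among 17, with Nfkbia, the gene of the inhibitor IkB alpha, at 0.14 (adjusted p = 0.936), Rel at 0.31 and Traf1 at 0.23.

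No call was made on the lists of stress responses and of housekeeping functions, other than Slc30a1 among 13 genes of NRF2 and metals. On each, the 2 genes with the smallest p are given with their log2 fold change. Of 22 genes of the ATF4 amino acid response these were Sesn2 (0.31, adjusted p = 0.073) and Mthfd2 (-0.13), of 16 of the unfolded protein response Dnajb9 (0.29) and Hyou1 (0.18), and of 10 heat shock genes Hsph1 (0.27) and Hspe1 (-0.28). Of 15 p53 targets, Cdkn1a and Sesn2 led, and of 9 glucocorticoid targets Fkbp5 (0.26, adjusted p = 0.107) and Ddit4. Interferon-stimulated genes were led by Irf1 (0.20) and Isg15 (-0.44), MHC class I and immunoproteasome genes (14 tested) by Tap1 (0.17) and Tapbp (0.09), and 10 TGF-beta targets by Tgif1 (0.24) and Tgfbr2 (0.14). The 25 oxidative phosphorylation genes had a median of -0.02 (Cox6c -0.30, Sdha 0.08), 20 mitochondrial ribosomal protein genes 0.01 (Mrpl4 0.11, Mrps18b -0.14) and 28 cytosolic ones -0.09 (Rpl10a -0.43, Rpl22 -0.27). Some lists without a call were one-sided too. Of the cytosolic ribosomal genes, 23 were negative and 5 positive (25 and 3 with TMM scaling). In the unfolded protein response 13 were positive and 3 negative, and of the glucocorticoid targets 8 and 1. The ATF4 list was even, at 11 and 11. Of 6 nuclear and unspliced RNAs, Gas5 had -0.11 and Kcnq1ot1 0.18.

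Among markers of other cells the same rule gave Acta1 (-1.82) and Des (-0.65) for muscle, Trpm1 and Dct for melanocytes, Cd68 (0.13) and Itgax (0.13) for macrophages, Cd22 (0.71) and Cd79b (0.12) for B cells, Dcn (-1.11) for fibroblasts, and Alas2 (0.32) and Apoa2 (-0.11) for erythroid cells and liver. Acta1, the skeletal muscle actin, was at 2.65, 136 and 1.72 at 2 h and 3.44, 2.55 and 0.974 at 4 h, so that untreated 2 h replicate 2 alone held it. Cd79b was at 58.3, 1.40 and 0.858 and 6.03, 47.6 and 0, present in the batch 1 libraries. Trpm1 was at 0, 0 and 0 at 2 h and 5.17, 0 and 1.95 at 4 h, near the level of 3 reads. In bulk RNA, fewer cells of a type and less RNA per cell cannot be told apart.

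**Figure D3:**
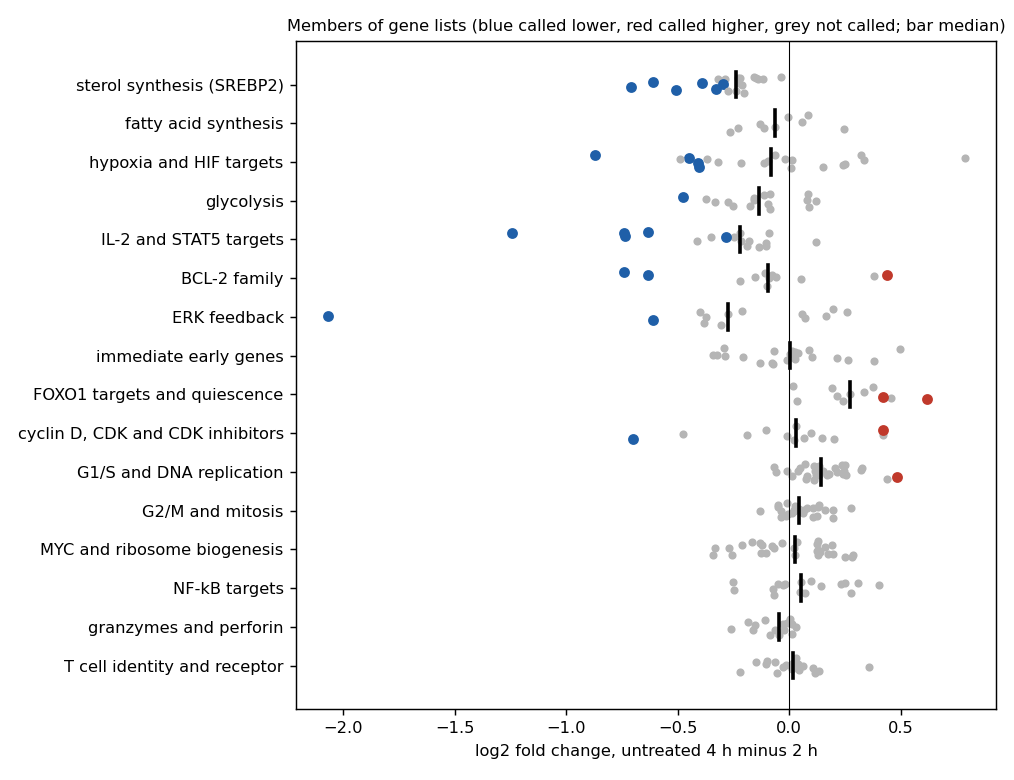
Log2 fold change from 2 h to 4 h in untreated cells for the tested members of 16 gene lists, 1 point per gene, with a bar at the median of each list. All 21 sterol synthesis genes lie left of 0 and all 11 FOXO1 targets right of it, and the called genes (blue lower, red higher) are few on each list.

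Some of the largest differences were not called. Gm10800, a predicted gene on chromosome 2, was at 201, 5.61 and 83.2 at 2 h and 8349.8, 11.0 and 1334 at 4 h, and its neighbour Gm10801 at 23.9, 0 and 23.2 and 1420.1, 1.70 and 193. Gm21738, on chromosome 14, followed with 17.2, 4.21 and 9.44 and 399, 4.25 and 65.3. For all 3 genes untreated 4 h replicate 1 was the highest of the 6 libraries, the same library that had few genes at 0, and the log2 fold changes of 3.41 ± 2.08, 3.42 ± 1.97 and 2.38 ± 1.24 had adjusted p of 0.737, 0.702 and 0.645. With the batch 2 libraries alone the log2 fold changes of these 3 genes were 7.14, 6.74 and 4.46 (adjusted p = 0.12, 0.142 and 0.12 with limma). The replicate block by batch and description number, over the same libraries, called all 3 (adjusted p = 5.13e-06, 0.000401 and 0.00411 with limma). Without untreated 4 h replicate 1 the log2 fold changes were 1.36, 1.43 and 0.899. Neil2, a DNA glycosylase, was at 2409.7, 255 and 305 and 149.8, 1393 and 109, where the batch 1 library was far above the others at each time (log2 fold change -1.01 ± 0.24, adjusted p = 0.0595). Ripk3, a kinase of necroptosis, had -0.82 ± 0.21 (adjusted p = 0.0759), and edgeR and DESeq2 called it lower. These 5 genes were singled out after their values were seen.

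The same step was measured in exosome-treated cells, with 6 other libraries that share the batches and the medium. Exosome-treated 2 h replicates 1 and 3 differed by 1.32 times the sampling noise (chi-square per degree of freedom), less than any other pair of libraries of 1 group in the series. The treated results are therefore also given with the mean of the pair as 1 library, an alternative chosen after seeing the data. In the main fit, which keeps the pair as 2 libraries, 176 genes were called between 2 h and 4 h in treated cells (1.19%), 70 higher (0.472%) and 106 lower (0.715%). Of the 74 genes called in untreated cells, 73 had the same direction in treated cells, against 64.6% of all genes tested, and 59 were called there too, 14 higher and 45 lower. Etv5 was at 137, 119 and 129.9 in treated cells at 2 h and 26.9, 23.8 and 31.5 at 4 h (log2 fold change -2.20 ± 0.35, adjusted p = 0.000989). Hsd17b7 went from 1005, 966 and 1050.0 to 587, 569 and 518 (-0.85 ± 0.07, adjusted p = 3.48e-07), with libraries of the 2 times apart as in untreated cells. Bcl2 went from 4989, 4404 and 4937 to 2162, 2741 and 2742 (-0.91 ± 0.12, adjusted p = 7.84e-05), and Ccng2 from 599, 876 and 724 to 996, 1786 and 1025 (0.75 ± 0.12, adjusted p = 0.00112). By list, 11 of 21 sterol genes were called lower in treated cells, 5 of 17 IL-2 and STAT5 targets lower and 1 higher (Pim1, 0.32), 5 of 20 HIF targets lower, 3 of 11 FOXO1 targets higher and 4 of 30 G1/S genes higher. The treated count also rested on single libraries: it was 53 without exosome-treated 2 h replicate 1, 55 without 2 h replicate 3, 83 without 4 h replicate 2, 90 without 4 h replicate 1 and 98 without 4 h replicate 3. With the mean of treated 2 h replicates 1 and 3 as 1 library, 52 genes were called in treated cells (14 higher and 38 lower), 36 of the 74 among them, of which 5 higher and 31 lower, and 73 of the 74 still had the same direction. The lists then gave 8 sterol genes lower, 5 IL-2 and STAT5 targets lower and 1 higher, 4 HIF targets lower, 2 FOXO1 targets higher and no G1/S gene, while Etv5, Hsd17b7, Bcl2 and Ccng2 were called as before.

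**Figure D4:**
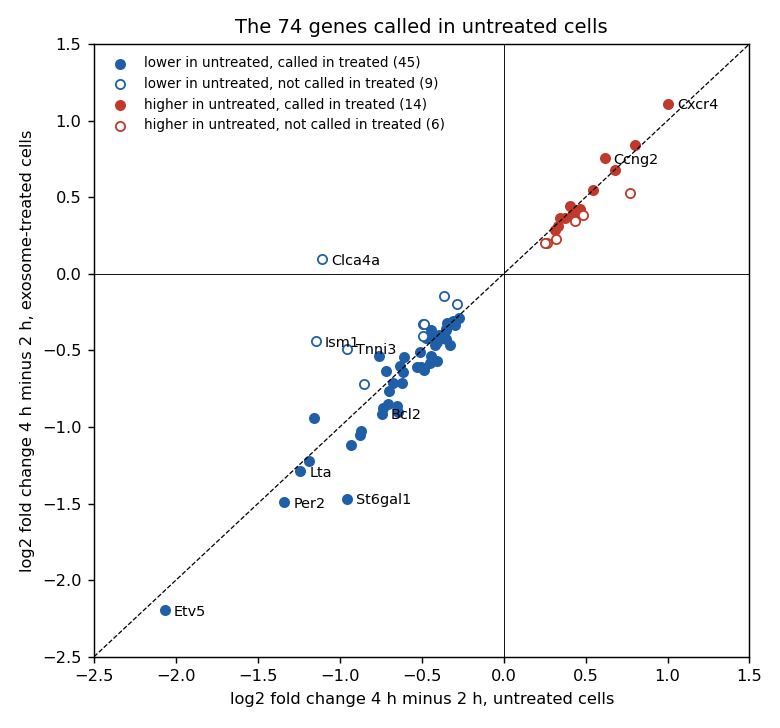
Log2 fold change from 2 h to 4 h in exosome-treated cells (vertical axis) against that in untreated cells (horizontal axis) for the 74 genes called in untreated cells, filled where also called in treated cells. The points follow the dashed line of equal change, and Clca4a alone lies on the other side of 0, at -1.11 and 0.10.

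A test of the difference between the steps of treated and untreated cells called none of the 14828 genes (0%), with 210 at an unadjusted p below 0.05, and edgeR and DESeq2 also called none (211 and 154 unadjusted). Of the 74 genes, Clca4a and Ism1 had an unadjusted p below 0.05. Clca4a, lower at 4 h in untreated cells, was at 19.7, 20.0 and 11.3 and 18.8, 16.3 and 18.0 in treated cells, a difference of 1.20 (95% interval 0.46 to 1.95, adjusted p = 1), and for Ism1 it was 0.71 (0.02 to 1.39). For Etv5 the difference was -0.13 with an interval of -1.15 to 0.89, for Hsd17b7 -0.14 (-0.36 to 0.07), for Bcl2 -0.17 (-0.51 to 0.17) and for Ccng2 0.14 (-0.22 to 0.49). These intervals hold 0, and the failure of the test does not show that the steps were equal. All 6 genes that ranked first by p in this test had an adjusted p of 1. Besides Clca4a they were Zfp993 (0.50 untreated and -0.70 treated, difference -1.20), Gm10015 (1.03 and -1.12, -2.15), the potassium channel gene Kcnh2 (-0.01 and 0.89, 0.89), Ifi206 (0.77 and -0.49, -1.26) and Gm5605 (-0.52 and 0.46, 0.97).

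The other untreated times place the step in the time course. The means of the 5 times, from 0 h and 0.5 h to 8 h, are given with no test, since those at 2 h and 4 h come from the libraries compared above. Etv5 was at 32.2, 33.5, 127, 31.0 and 14.8 normalized counts, so that its level at 4 h was near that at 0 h. Lta was at 466, 804, 1132, 472 and 389, likewise highest at 2 h, and Per2 at 36.0, 35.4, 74.7, 29.5 and 15.1. Bcl2 had another course, at 5242, 5481, 4964, 2969 and 3528, high until 2 h and lowest at 4 h. Bcl2l1, by contrast, was at 702, 779, 1029, 661 and 733, with its highest mean at 2 h.

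The 6 called sterol genes had their lowest mean at 4 h. Sqle was at 2992, 3155, 2708, 2064 and 2795, and Cyp51 at 4119, 4673, 4112, 2906 and 3698, both above the 4 h value again at 8 h. Bnip3 was at 2609.7, 3323, 2256, 1176 and 2394, again with the lowest mean at 4 h. The higher genes had their lowest mean at 2 h: Ccng2 was at 1769.8, 1575, 776, 1201 and 1303, Cdkn1b at 4918, 4270.5, 3136, 4243 and 4288, and Cxcr4 at 298, 212, 101, 204 and 192. Of the 20 higher genes, 19 had their lowest mean of the 5 times at 2 h and 13 their highest at 4 h. Of the 54 lower genes, 34 had their highest mean at 2 h and 34 their lowest at 4 h. Calling genes by their step from 2 h to 4 h favours extremes at these times. The counts are therefore no test of the time course.

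The comparison of 8 h with 0 h in untreated cells, which uses neither time of the step, called 15.9% of genes higher and 15.8% lower. Of the 54 genes lower at 4 h than at 2 h, 20 were lower at 8 h than at 0 h, 1 was higher (Polr3d) and 33 were not called. Of the 20 higher genes, 4 were lower at 8 h than at 0 h (Ccng2, Cdkn1b, Cxcr4 and Pnrc1), 1 was higher (Taf8) and 15 were not called. For Ccng2 the log2 fold change from 0 h to 8 h was -0.49 (adjusted p = 0.00394), and for Etv5 it was -0.83 (adjusted p = 0.0537).

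**Figure D5:**
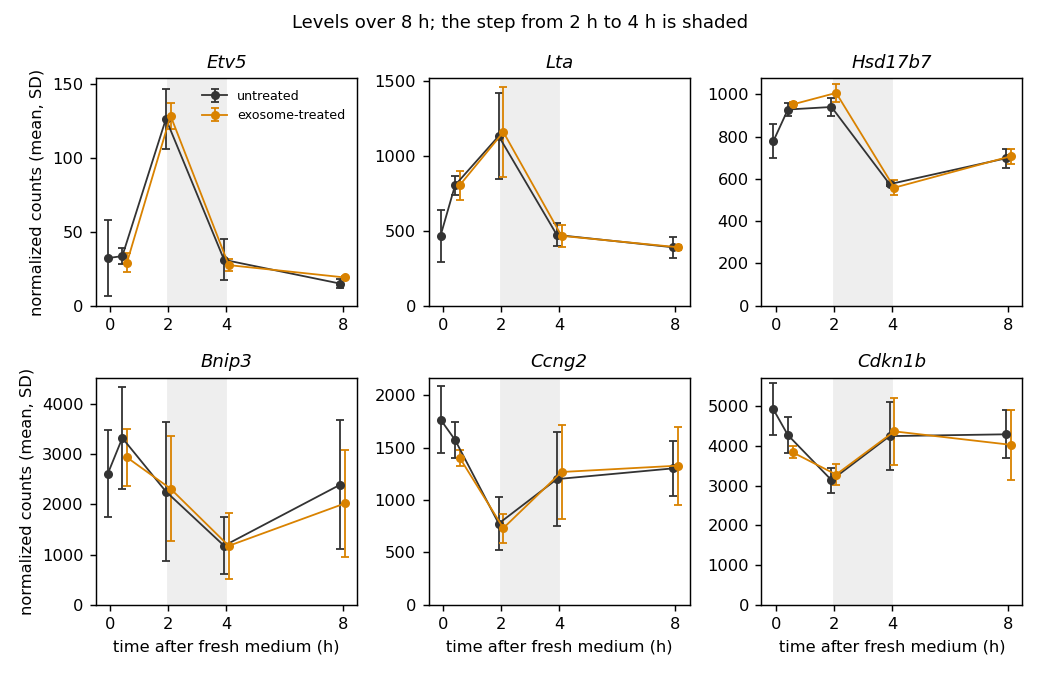
Mean normalized counts (vertical axes, from 0) with SD against time after fresh medium in h, for untreated (black, n = 3, at 0 h n = 4) and exosome-treated cells (orange, n = 3), with the span from 2 h to 4 h shaded. Etv5 and Lta are highest at 2 h, Hsd17b7 and Bnip3 are lowest at 4 h, and Ccng2 and Cdkn1b are lowest at 2 h in untreated cells.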

How the data were processed

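RNA of CTLL2 cells was sequenced as paired-end TruSeq RNA libraries, per the labels' protocols. The deposited table holds normalized counts, in which the authors divided the read counts of each gene by 1 size factor per library (a signal, not a count). Per the submitters' processing notes, the tools were featureCounts 1.5.0, STAR 2.4.2, CASAVA 1.8.4, R 3.3.2 and DESeq2, with build GRCm38.p2. For the annotation release and the use of strand in counting, nothing is given in the sources used here, so reads of overlapping, antisense or near-identical genes cannot be told apart. The deposited values were whole multiples of 1 read for 100% of values (within 0.01 reads), which gave back the reads and the depth of each library. Symbols and gene positions are from GENCODE M21 on GRCm38 (30403 of 30608 identifiers found).

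The main test was limma 3.58.1 in R 4.3.3, run with a trended variance on log2(normalized count + 1), over all 28 libraries, 9 groups of treatment and time and batch as a term (18 residual degrees of freedom). Genes with at least 10 normalized counts in at least 3 libraries were tested, 14828 in all, with Benjamini-Hochberg adjustment over all of these. The fit shares 1 estimate of the spread among the 9 groups. The difference of the steps was a contrast of the same fit, and its intervals are 95% intervals of limma. The fit was tested on simulated data. Alternatives were edgeR 4.0.16 (quasi-likelihood) and DESeq2 1.42.0 on the recovered reads, TMM factors, other pseudocounts and filters, fits without batch, on the groups compared alone or on batch 2 alone, replicate blocks, and each library left out.

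Pairs of untreated libraries of 1 time differed by 5.93 to 72.1 times the sampling noise at 2 h and 4 h (chi-square per degree of freedom). Exosome-treated 2 h replicates 1 and 3 differed by only 1.32 times, and the fit was repeated with their mean as 1 library, an alternative added after seeing the data.

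The gene groups, lists, motifs and named genes were chosen with earlier results of these data known. The rule for named genes took, of called genes whose 2 batches had 1 direction and that had a mean of at least 50, without predicted genes, the 12 with the largest change in each direction. To these it added 16 fixed genes, up to 4 called members of each of 43 lists (or the 2 with the smallest p) and the 6 genes that ranked first in the test of the difference. The other called genes are given in addition, and 5 uncalled genes were picked from their values. The level of 3 reads covers counting error only. Values of 2 genes that the rule would name are not reported here, although they stay in the counts.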

Additional observations from a re-analysis of the deposited data

Results flagged for a closer look

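Dct, a melanin enzyme on the melanocyte list, was picked out because each untreated 4 h library lay below the 2 h mean of its batch on the log2 scale, whereas each treated 4 h library lay above it. It was at 3.98, 3.51 and 2.57 in untreated cells at 2 h and 1.72, 0.849 and 2.92 at 4 h, and at 11.8, 25.0 and 27.3 and 20.6, 27.6 and 22.5 in exosome-treated cells. The untreated values all lay near or under the level of 3 reads. The libraries of the 2 times overlapped in both untreated and treated cells. The step was -0.674 in untreated and 0.207 in treated cells, a difference of 0.881 (95% interval -0.27 to 2.04). The test of the difference in limma gave an unadjusted p of 0.128 and an adjusted p of 1, so the difference was not called.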

How the results depend on the processing

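Other settings changed how many genes were called in untreated cells (74), not their direction: none of the 74 changed sign under any of the 20 settings tried per gene (18 for Clca4a). Several settings, such as the fits without batch or on the 6 libraries alone, leave the log2 fold change as it was. Those settings could not change a sign. The count was 114 with the batch 2 libraries alone, 186 with DESeq2, 9 without batch in the fit and 7 with the 6 libraries alone, and within 1.5 times of 74 with edgeR, TMM factors, other pseudocounts and other filters. It lay between 20 and 64 with 1 library left out, where 57 of the 74 lost their call at least once. In treated cells (176) the count was 594 with batch 2 alone, 333 with DESeq2, 15 without batch, 117 without a filter, 4 with the 6 libraries alone and between 53 and 140 with 1 library left out. With exosome-treated 2 h replicates 1 and 3 as 1 library, chosen after seeing the data, it was 52, against 72 in untreated cells, where Pde3b, Prelid2 and Tlr5 lost their call. Genes called for the difference of the steps (0) were 2 with batch 2 alone. The cause of these moves was not tested, other than that fits on fewer libraries have fewer degrees of freedom.

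Whether the numbers of the titles pair the libraries could not be decided. Deviations from the group means correlated at -0.363, -0.45 and 0.62 between libraries of the same number, and not every library correlated best with its own number. Libraries of the same batch correlated at 0.253 to 0.62 and those of different batches at -0.65 to -0.363, so that batch masks any pairing by number. A replicate block by the numbers of the titles gave 58 calls in untreated cells. A block by batch and the number in the descriptions, which leaves the batch 2 libraries only, gave 44 in untreated cells, 394 in treated cells and 2 for the difference. A block added after seeing the data, with the batch 1 libraries of both times as 1 block, called 0 genes in untreated and 0 in treated cells with limma (704 and 797 at an unadjusted p below 0.05). A call lost under a block is not read as a weaker effect.

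Signs of 78 uncalled genes were followed across the settings, and 13 of these changed sign in at least 1 setting. With batch 2 alone, and with the block by batch and description number, the log2 fold change was 0.0132 for Apoa2, -0.000853 for Cd68, 0.0559 for Cox6c, -0.0717 for Itgax, -0.00804 for Junb, 0.0214 for Rpl22, -0.176 for Slc2a1 and -0.00170 for Tapbp. With TMM factors it was -0.000352 for Slc2a1. With 1 library left out it ran from -3.15 to 0.249 for Acta1, -0.202 to 0.0731 for Apoa2, -0.540 to 0.906 for Cd79b, -0.692 to 0.248 for Fos, -0.0279 to 0.247 for Itgax, -0.0634 to 0.0760 for Junb, -0.0781 to 0.308 for Kcnq1ot1, -0.0603 to 0.253 for Nfkbia, -0.207 to 0.119 for Slc2a1 and -0.00495 to 0.177 for Tapbp.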

Other observations

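Gm10800 was also high in single libraries of other groups. In exosome-treated cells at 8 h it was at 1647, 233 and 2831 in replicates 1, 2 and 3. The highest of these, replicate 3, was the library of the series with the fewest genes at 0 after untreated 4 h replicate 1 (22% against 15.7%). Whether the level of Gm10800 and the number of genes at 0 have a shared source was not tested.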
